A study of Saccharomyces cerevisiae with 6 samples.

Results

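ATG41 and 9 further autophagy genes of Saccharomyces cerevisiae, baker's yeast, were followed on 2-colour microarrays as cells moved from growth without oxygen into air. The 10 genes are those whose symbol in the platform annotation is ATG41, ATG1, ATG7, ATG8, ATG9, ATG13, ATG14, ATG29, ATG32 or ATG33. They are 10 of the 6470 genes and unnamed features on the array, with 1 feature each. ATG41 was selected on the values described here, namely its low ratio at 5 min and its rise with time, so these are given with no test. The other 9 were added for their roles in the core machinery of autophagy or in the removal of mitochondria.

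All cultures grew to exponential phase in nitrogen-purged, dithionite-reduced bottles of synthetic complete medium with amino acids, ergosterol and unsaturated fatty acids, and the labels name neither strain nor genotype. Cells were aerated for 5, 10, 20, 60 or 120 min, with 1 sample from a flask of its own at each time, and each sample was set against 1 pool of RNA from the same flasks at 0 min. A sixth sample was the pool against itself. Behind each aerated sample lie technical replicate arrays with the dyes swapped, merged before deposit, so no time has a replicate and a single value has no error of its own. The pool is shared by all 5 ratios.

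Autophagy encloses cytoplasm or organelles in a double membrane, the autophagosome, and delivers them to the vacuole for breakdown. In yeast it is induced above all by nitrogen starvation, when the TORC1 kinase is off. The Atg1 kinase complex starts the process, Atg9 vesicles bring membrane, a phosphatidylinositol 3-kinase marks the site, and Atg8 is coupled to lipid on the growing membrane. Mitophagy is the selective form that removes mitochondria, through the receptor Atg32. ATG41, formerly ICY2, encodes a protein that binds Atg9 and is needed for autophagosomes to form at the normal rate.

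Positive log2 ratios stand for more RNA in aerated cells than in the pool. The log base was read from the values and the direction from the sample titles. The labels do not settle the direction, because each channel is listed with both dyes, and they name the aerated RNA under channel 2 for the first 2 times but under channel 1 for the others. At 5 min, TIR1, DAN1 and HEM13, genes of anaerobic growth, were at 2.24, 1.96 and 1.32, and CYC1, of aerobic cytochrome c, was at -1.19. These 4 genes had the opposite sign at each of the 4 later times. If the 5 min sample were turned, each count below of 5 of 5 samples on 1 side of the pool would be 4 of 5. Pearson's correlations of the 5 min sample with 10, 20, 60 and 120 min were 0.382, 0.151, 0.025 and 0.030. They were taken across genes, which are no independent replicates, and turning the sample would reverse their signs. Of the label fields, the description at 5 min is that of the self-hybridisation, and the extraction protocol at 60 min gives 20 min. The 60 min sample also had the widest spread, with a robust SD of 0.818 over all genes, against 0.271 to 0.360 at the other aeration times and 0.357 in the self-hybridisation.

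With the direction taken from the titles, ATG41 was the lowest of 6115 genes after 5 min of air and ended above the pool after 120 min. With the 5 min sample turned it would be the highest there, at 4.61. Its log2 ratios at 5, 10, 20, 60 and 120 min were -4.61, -2.86, -2.42, -0.36 and 0.96. Each time was higher than the one before it, and the last alone lay above 0. In folds against the pool, ATG41 RNA was 24.3-fold lower at 5 min, 7.24-fold lower at 10 min, 5.36-fold lower at 20 min, 1.28-fold lower at 60 min and 1.95-fold higher at 120 min. In the self-hybridisation it was at -0.24, inside the spread of that sample.

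The order of the 5 levels was thus the order of the times. From 5 to 10 min ATG41 moved up by 1.75 on the log2 scale, from 10 to 20 min by 0.44, from 20 to 60 min by 2.07 and from 60 to 120 min by 1.32. The robust SDs of both samples over all genes, real responses included, were combined as the root of their summed squares. This gave 0.45, 0.50, 0.89 and 0.89 for these steps. The combination treats the samples as unrelated, though 10 and 20 min correlated at 0.646 across genes, so it can exceed the spread of their differences. The step from 10 to 20 min was below its combined value and the other 3 steps were above theirs, which is no test. Between the first and the last time ATG41 differed 47.4-fold.

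**Figure D1:**
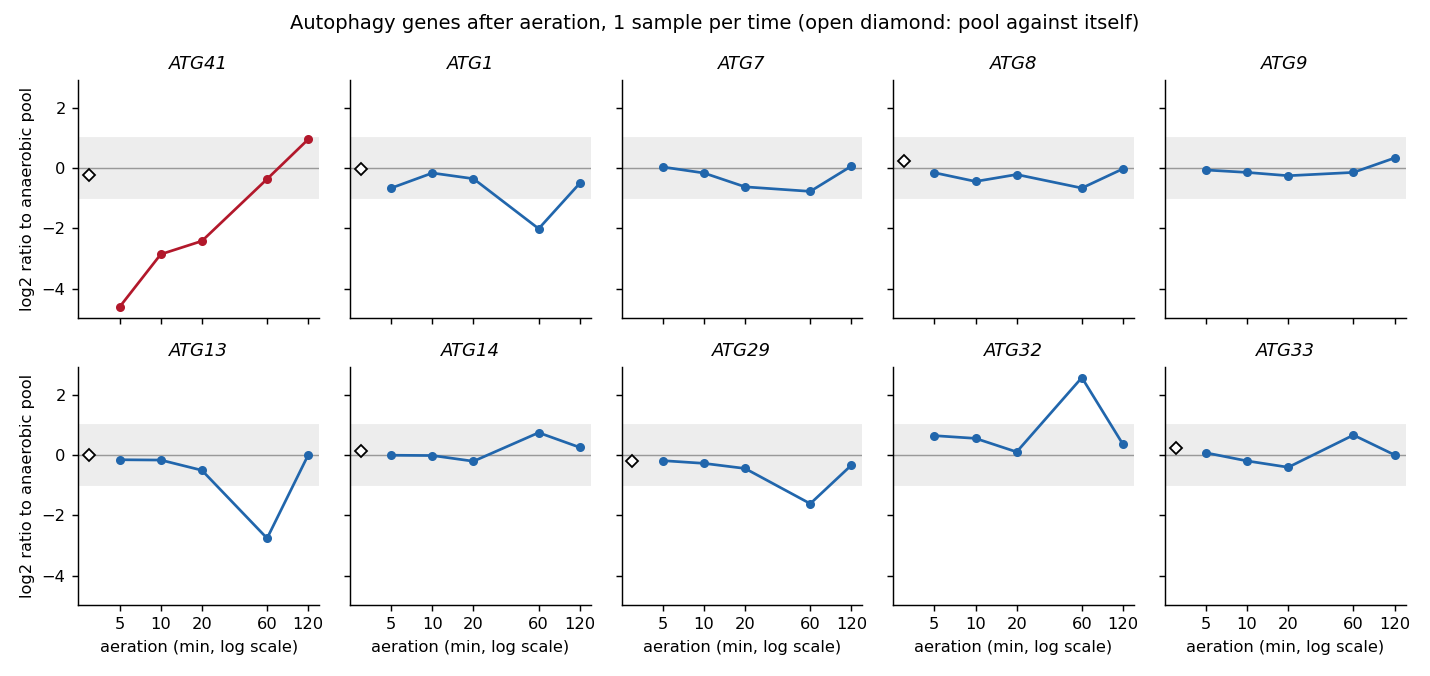
Log2 ratio to the anaerobic pool (vertical axis) against minutes of aeration (log scale) for each of the 10 genes, 1 point per sample. The grey band marks less than a 2-fold difference and the open diamond the pool against itself, where it has a value. ATG41 climbs from -4.61 to 0.96, while ATG1, ATG13, ATG29 and ATG32 leave the band at 60 min alone.

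A straight line on log2 of minutes described the ATG41 course with a slope of 1.16 ± 0.09 (SE, limma, n = 5 samples) per unit, which is the log2 change for each 2-fold longer aeration. The largest departure of a sample from that line was 0.43. Next below ATG41 in slope were ZRT1 at 0.91, INO1 at 0.66 and ZPS1 at 0.63, which encode a zinc transporter, the enzyme of inositol synthesis and a zinc-regulated surface protein. Next to ATG41 at 5 min were 2 unnamed features at -3.47 and -3.26 and the arabinose dehydrogenase gene ARA1 at -3.17. Values that were higher at each later time were found for 42 of 5771 genes (0.728%), and ATG41 had the widest span among them. With the 5 min sample turned, a setting added after seeing the data, there were 33 such genes and ATG41 was not one of them. Among the 42 genes with the direction of the titles, ZRT1 came next to ATG41 in span, from -1.64 to 2.48. It was followed by ZAP1, the zinc-sensing activator, from -1.24 to 1.71. These ranks use the contrast that chose ATG41 and are descriptions.

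The low value at 5 min and the slope over all 5 times depend on the sign given to the 5 min sample. With that sample turned the slope would be -0.32, and with the 5 and 10 min samples both turned -0.82. At 10 min, unlike 5 min, TIR1, DAN1, HEM13 and CYC1 had the signs of the later times, at -4.25, -3.77, -0.92 and 1.76. Without the 5 min sample the slope was 1.10, so the climb from 10 to 120 min alone had nearly the same steepness. With the values taken as log2 in place of natural logs the slope was 0.80.

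ICY1, the paralogue of ATG41, was also low in the first hour. Its log2 ratios were -0.47, -1.73, -1.36, -0.73 and 0.48 at 5, 10, 20, 60 and 120 min, and 0.08 in the self-hybridisation. Both genes were below the pool at the first 4 times and above it at the last. They were furthest apart at 5 min, where ATG41 was lower by 4.14 on the log2 scale, against 1.13 and 1.06 at 10 and 20 min. At 60 and 120 min ATG41 stood above ICY1 by 0.38 and 0.48. ICY1 had a mean of -0.76 ± 0.30 (SE, n = 5) over the 5 times and did not pass the test of the mean in limma (adjusted p = 0.304 over all 5771 genes).

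Likeness to ATG41 was measured as the root mean square difference of the 5 log2 ratios, over the 5771 genes with a value at all 5 times. The 8 nearest genes were RTC2 at 1.54, ARG4 at 1.55, ARG3 at 1.56, MIS1 at 1.61, TMT1 and PCL5 at 1.64, CPA1 at 1.71 and DST1 at 1.72. ARG3, ARG4 and CPA1 encode enzymes of arginine synthesis, RTC2 a vacuolar membrane protein, MIS1 a mitochondrial folate enzyme, TMT1 a methyltransferase, PCL5 a cyclin and DST1 a transcription elongation factor. All 8 were below the pool from 5 to 60 min. ARG4, for example, was at -1.45, -2.81, -3.38, -1.31 and 0.58, and CPA1 at -1.25, -1.38, -1.39, -0.59 and 1.24. At 5 min the lowest of the 8 was RTC2 at -2.41, above ATG41 at -4.61. All 8 were lower at 10 min than at 5 min, whereas ATG41 had its lowest value at 5 min.

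Without the 5 min sample 3 of these 8 genes were among the 8 nearest, so that sample decides most of the list. ICY1 ranked 30th of 5770 genes in likeness, at 1.99. Nearest of the other autophagy genes was ATG4, ranked 318th at 2.45, and of the 9 chosen with ATG41 it was ATG8, ranked 555th at 2.52.

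**Figure D2:**
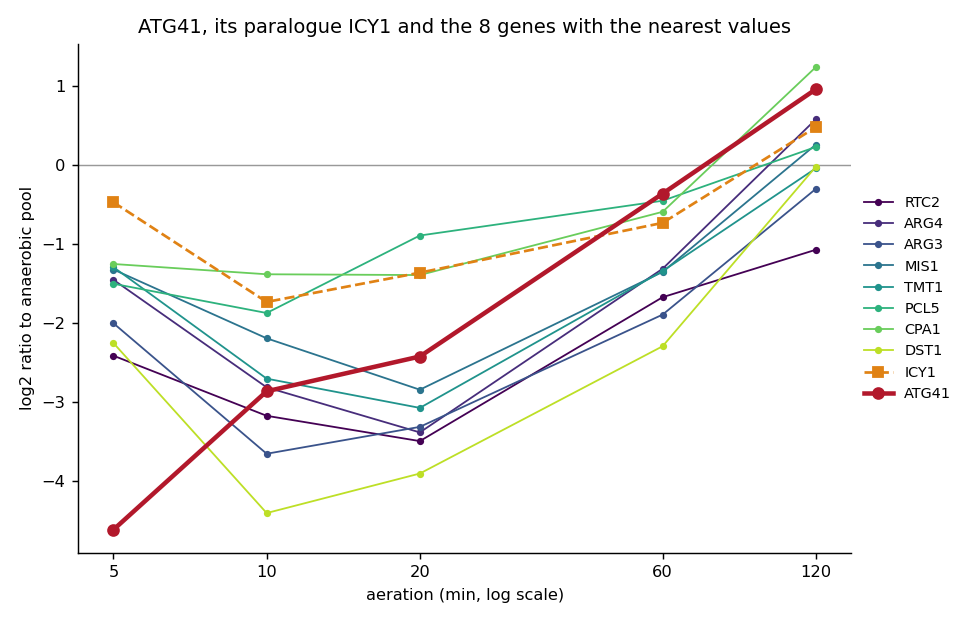
Log2 ratio to the anaerobic pool (vertical axis) against minutes of aeration (log scale) for ATG41 (thick red), its paralogue ICY1 (dashed) and the 8 genes with the smallest root mean square difference from ATG41, 1 sample per time. ATG41 starts at -4.61, below RTC2, the lowest of the others, at -2.41, and all end between -1.07 and 1.24.

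The partner of the ATG41 protein, ATG9, stayed close to the pool throughout. ATG9, the membrane protein of the vesicles that seed autophagosomes, was at -0.06, -0.14, -0.25, -0.14 and 0.34 at 5, 10, 20, 60 and 120 min. No sample was 2-fold from the pool, and its mean was -0.05 ± 0.14 (SE, n = 5; limma, adjusted p = 0.909), or between -0.15 and 0.00 with 1 time left out. The other genes of Atg9 traffic, ATG2, ATG18, ATG23 and ATG27, had 0 of 4 past the threshold in either test. Over all genes, ATG41 left out, it was 0 of 5770 (0%) in each test. ATG18 was 2-fold from the pool at 60 min alone, at 1.17.

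Genes of the Atg1 kinase complex were low at 60 min. ATG1, the kinase itself, was at -0.66, -0.16, -0.35, -2.01 and -0.50 at the 5 times in order, below the pool in all of them. ATG13, its regulatory subunit, whose phosphorylation by TORC1 holds autophagy back, was at -0.15, -0.16, -0.50, -2.76 and 0.01. ATG29, part of the scaffold under the kinase, was at -0.18, -0.27, -0.44, -1.61 and -0.33. In each of these 3 genes the 60 min sample was the lowest and at least 2-fold below the pool, and the other 4 samples were within 2-fold of it.

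Of all 6 genes of the complex and its scaffolds, 5 were at least 2-fold lower at 60 min, against 12.9% of all genes in that sample. After scaling all samples to 1 common spread it was 1 of 6, against 1.8% of all genes, and with values taken as log2 it was 4 of 6, against 6.54%, both settings added after seeing the data. The further ones were the scaffold genes ATG17 at -1.78 and ATG11 at -1.09, while the remaining scaffold gene, ATG31, was at 0.06. ATG17 was at 1.06 at 120 min. That group was singled out after its values were seen, it rests on 1 sample, and it was not tested. The means over the 5 times were -0.74 ± 0.26 for ATG1, -0.71 ± 0.39 for ATG13 and -0.57 ± 0.22 for ATG29 (SE, n = 5), with adjusted p of 0.250, 0.465 and 0.304 in limma. Without the 60 min sample these means were -0.42, -0.20 and -0.31.

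ATG14, the subunit that commits the phosphatidylinositol 3-kinase to autophagy, was at 0.00, -0.01, -0.20, 0.75 and 0.26. Its mean of 0.16 ± 0.16 (SE, n = 5; limma, adjusted p = 0.695) was 0.01 without the 60 min sample. None of the 5 genes of that kinase complex passed a test, beside 0 of 5770 genes (0%) in each test. The catalytic subunit gene VPS34 was below the pool at all 5 times, between -0.49 and -0.23.

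ATG8, the ubiquitin-like protein coupled to the membrane, and ATG7, the enzyme that activates it, lay within 2-fold of the pool at every time. ATG8 was at -0.15, -0.44, -0.21, -0.66 and -0.02, below the pool in 5 of 5 samples, with a mean of -0.30 ± 0.14 (SE, n = 5; limma, adjusted p = 0.409). ATG7 was at 0.04, -0.16, -0.62, -0.77 and 0.07, with a mean of -0.29 ± 0.17 (adjusted p = 0.495), or -0.17 without the 60 min sample. ATG8 was at 0.25 in the self-hybridisation, so its distance from the pool at 5, 20 and 120 min was no larger than that of the pool from itself. The conjugation genes numbered 8 in all, and 0 of 8 passed either test, beside 0 of 5770 genes (0%) in each. ATG5, of this list, was 2-fold from the pool at 60 min alone, at 2.27.

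Of the mitophagy genes, ATG32 was above the pool and ATG33 below it at 10 and 20 min. Both were highest at 60 min, the sample with the widest spread. ATG32, the receptor on the outer mitochondrial membrane, was at 0.65, 0.56, 0.11, 2.58 and 0.36, above the pool in 5 of 5 samples. The 60 min value is a 5.97-fold higher level, the 31st highest of 5883 genes in that sample. ATG33, an outer membrane protein that aids mitophagy, was at 0.08, -0.19, -0.40, 0.67 and 0.01, and no sample was 2-fold from the pool. The mean was 0.85 ± 0.34 (SE, n = 5; limma, adjusted p = 0.309) for ATG32 and 0.03 ± 0.17 (adjusted p = 0.957) for ATG33. Without the 60 min sample the means were 0.42 and -0.13. With the 5 min sample turned, ATG32 would be above the pool in 4 of 5 samples, with a mean of 0.59. ATG32 had no value in the self-hybridisation.

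Counted at each time, 1 of 10 genes was at least 2-fold from the pool at 5, 10 and 20 min, where the share over all genes was 2.09%, 4.96% and 4.74%. In each case it was ATG41, which was chosen on these values, so the excess over that share is no result. Of the other 9 genes, 0 were 2-fold from the pool at these times. At 60 min it was 4 of 10, ATG32 higher and ATG1, ATG13 and ATG29 lower, against 24.3% of all genes, and at 120 min 0 of 10 against 3.19%. After scaling all samples to 1 common spread, 2 of 10 were past 2-fold at 60 min, against 2.43% of all genes. With values taken as log2 it was 4 of 10, against 10.6%. In the self-hybridisation 7 of the 10 had a value, all between -0.24 and 0.25, and 0 of 7 were 2-fold away, against 4.0% of all genes there. That sample is 1 array and the others are merged pairs, so the shares are not strictly comparable.

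**Figure D3:**
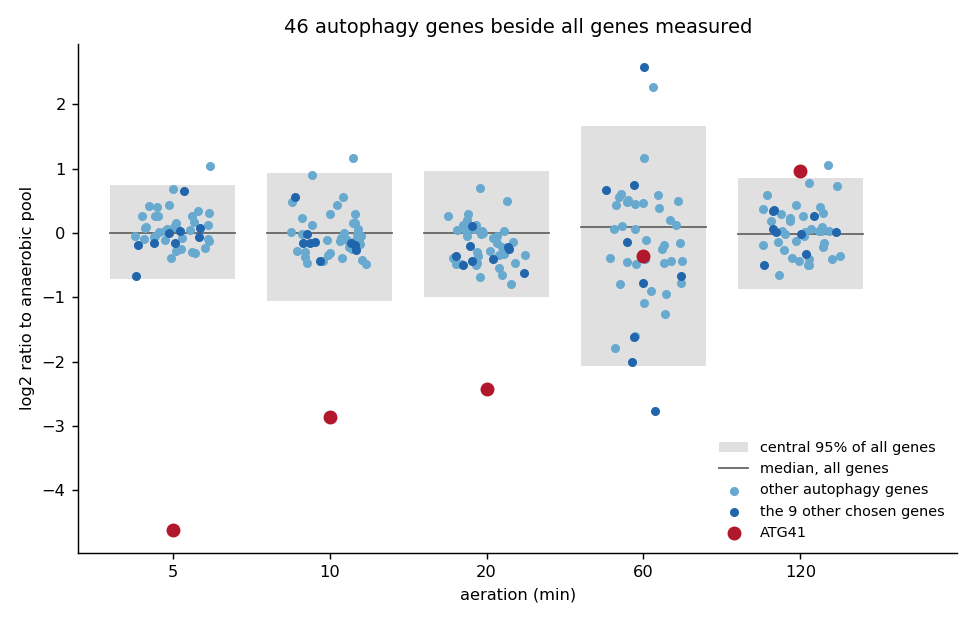
Log2 ratio to the anaerobic pool (vertical axis) at each aeration time for 46 autophagy genes, with ATG41 in red, the 9 other chosen genes in dark blue and the rest in light blue, spread sideways for legibility. Grey boxes span the central 95% of all genes in the same sample and are widest at 60 min, from -2.07 to 1.67. ATG41 lies below the boxes at 5, 10 and 20 min.

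None of the 9 genes beside ATG41 passed a test over all genes. In limma's test of the mean over the 5 times, 0 of 9 passed, with adjusted p from 0.250 to 0.957, beside 0 of 5770 genes (0%), ATG41 left out of the count. At an unadjusted p under 0.05 there were 3 of 9, ATG1, ATG29 and ATG32, and 813 of 5770 genes (14.1%). In the test of the slope 0 of 9 passed, with adjusted p from 0.936 to 0.999 and 0 of 9 at an unadjusted p under 0.05. The counts over all genes, ATG41 again left out, were 0 of 5770 (0%) and 160 of 5770 (2.77%). The slopes of the 9 lay between -0.22 ± 0.24 for ATG13 and 0.16 ± 0.21 for ATG32 (SE, n = 5). The tests of the mean leave out the spread of the pool, and changes over time count as spread, so a p that misses the threshold does not show that a gene kept its level.

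**Figure D4:**
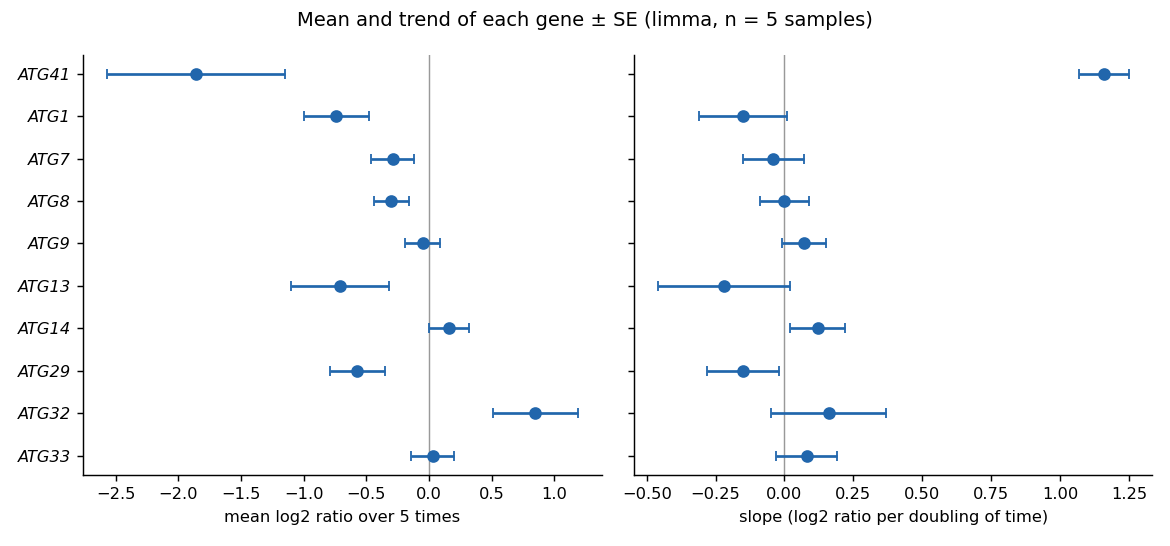
Mean log2 ratio over the 5 aeration times (left) and slope per 2-fold longer aeration (right) for each of the 10 genes. Points are limma estimates and bars 1 SE, n = 5 samples. The slope of ATG41 is 1.16 and the others lie between -0.22 and 0.16. ATG41 was chosen for its rise, so this distance is a description and no test.

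The wider autophagy machinery was described with 7 lists of 46 genes, the 10 included. Its median was below that of all genes at 10, 20 and 60 min and slightly above it at 5 and 120 min. The median log2 ratio of the 46 was 0.03, -0.11, -0.23, -0.17 and 0.03 at 5, 10, 20, 60 and 120 min, beside 0.00, 0.00, 0.00, 0.09 and -0.01 over all genes. At 20 min 33 of the 46 were below the pool, and the median of the 46 was level with the lower quartile of all genes, also -0.23. The 46 include ATG41, chosen for its low early value. With the 10 left out, 24 of 36 genes were below the pool at 20 min. Their median was -0.15, above that quartile. The 46 were not tested as a set. Of the 36 genes outside the 10, 1 was at least 2-fold from the pool at each of 5, 10 and 120 min, 0 at 20 min and 6 at 60 min. The last is 16.7% of them, below the 24.3% of all genes in that sample, and 1 of 36 is 2.78%, beside 2.09%, 4.96% and 3.19% of all genes at 5, 10 and 120 min. None of the 36 passed a test over all genes, beside 0 of 5770 genes (0%) in each test. For the mean 5 had an unadjusted p under 0.05 in limma, a share close to the 14.1% of all genes. For the slope it was 0, beside 2.77% of all genes.

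ATG39, a receptor for autophagy of the nuclear envelope, was the gene outside the 10 that was 2-fold higher at 5 and 10 min. It was at 1.05, 1.17, 0.50, 0.11 and 0.78 at the 5 times, above the pool in 5 of 5 samples, with a mean of 0.72 ± 0.18 (SE, n = 5; limma, adjusted p = 0.143). With the 5 min sample turned it would be above the pool in 4 of 5, with a mean of 0.30. At 60 min the 6 genes, named after their values were seen, were ATG5 at 2.27 and ATG18 at 1.17, of membrane growth, and ATG11, ATG17, ATG20 and ATG38, which were lower, at -1.09, -1.78, -1.26 and -1.60. The receptor gene ATG40, for autophagy of the endoplasmic reticulum, lay between 0.04 and 0.23 at all 5 times.

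Genes of vacuolar breakdown were within 2-fold of the pool at all 5 times. The protease gene PEP4 was at 0.31, 0.43, 0.00, -0.40 and 0.29 at 5, 10, 20, 60 and 120 min, PRB1 at 0.09, 0.48, -0.07, 0.51 and 0.59, and PRC1 at 0.27, 0.56, -0.14, 0.45 and 0.73. ATG42, a carboxypeptidase gene, was at 0.10, -0.34, -0.46, -0.77 and -0.49. ATG15, a lipase that opens autophagic bodies, and ATG22, an amino acid exporter, had means of -0.05 each. APE1, AMS1 and APE4 are the 3 cargo hydrolase genes of the constitutive pathway to the vacuole. Of these and the 6 genes of vacuolar breakdown, 0 of 9 passed either test, beside 0 of 5770 genes (0%) in each.

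Regulators reported to act on ATG genes were described as a list of 14, of which 13 had a value at all 5 times. Of these, 0 of 13 passed either test, beside 0 of 5770 genes (0%) in each. GCN4, the activator of amino acid synthesis genes, was at -0.34, 0.24, 0.02, 0.57 and 0.59. GLN3, an activator used when nitrogen is poor, was below the pool in 5 of 5 samples, at -0.48, -0.55, -0.39, -1.28 and -0.26 (mean -0.59 ± 0.17, SE, n = 5; limma, adjusted p = 0.178). PHO23, of a histone deacetylase complex that represses ATG9, was at 0.38, 0.52, 1.54, 0.53 and 0.16. PHO23 was 2-fold from the pool at 20 min alone, as 1 of 13 regulators with a value there (7.69%), beside 4.74% of all genes. At 60 min 3 of the 14 were 2-fold away (21.4%), beside 24.3% of all genes. These were SFL1 at 2.05, SIN3 at -1.3 and GLN3. SFL1 had the largest mean of the list, 0.74 ± 0.26 (SE, n = 5; limma, adjusted p = 0.25).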

How the data were processed

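The authors deposited 1 table of normalized log ratios for 6495 features and 6 samples, with dye-swap arrays merged per time, per the labels' design text. The sources used here do not state the normalization method, background correction or filters, and the signal behind each ratio is unknown, so the number of arrays limits the precision. No label gives the log base. The lowest deposited value, -4.6051702, equals the natural log of 0.01, so values were read as natural log ratios and divided by 0.6931 to give log2. Column medians lay between -0.009 and 0.063. Features were named by the platform table (5754 with 1 symbol, 741 with none, 0 with several), all matched by gene ID to the R64 RefSeq table, and 25 genes with several features were averaged. LAP4 was matched as APE1.

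limma 3.58.1 in R 4.3.3 fitted the mean and the slope on log2 minutes over 5771 genes with values at all 5 times, two-sided, Benjamini-Hochberg adjusted, threshold 0.05. ATG41, chosen on these values, was left out of counts of genes past a threshold of either test. The script was tested on simulated data with slopes steeper than that of ATG41 and an equal spread in all samples. That run checks the code and does not show which slopes could be detected here. The separate flasks are the replicates, which may differ for technical reasons. The 10 genes, lists, tests and naming rule were chosen with earlier results of these data known. The rule named the 10 genes, ICY1, autophagy genes 2-fold from the pool at 2 or more times, 8 genes most like ATG41, neighbours in slope and 5 min value, and 4 oxygen genes. Genes named outside it illustrate their lists and were picked after their values were seen. Planned promoter motifs were not analysed here.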

Additional observations from a re-analysis of the deposited data

How the results depend on the processing

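No paired analysis was possible because each group is 1 sample. The ATG41 slope of 1.16 lay between 1.10 and 1.22 with 1 time left out, was 0.80 with values taken as log2, 1.38 with samples centred and scaled to the same spread and 1.36 per step with the times taken in order. It was -0.32 with the 5 min sample turned and -0.82 with 5 and 10 min turned. The mean of ATG41 lay between -2.56 and -1.17 with 1 time left out and was -0.01 with 5 min turned and 1.13 with 5 and 10 min turned. Leaving ATG41 out of the count, genes called for the mean numbered 0 in the reported fit, 57 with samples centred and scaled, 551 with array weights, 6 with 5 min turned and 0 to 13 with 1 time left out. Genes called for the trend, ATG41 left out, numbered 0 in the reported fit, 1 with samples centred and scaled, and 0 in each other fit run. The 9 other genes were called in none of these fits. At 60 min 2 of the 10 genes were 2-fold from the pool after scaling, against 2.43% of all genes, and 4 without it, against 24.3%. Of the 8 genes nearest to ATG41, 3 to 6 were shared with 1 time left out, 3 of them without 5 min.

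Among the 9, 5 of 108 means and 13 of 108 slopes under an alternative had the other sign, and none was called. The mean of ATG9 was 0.03 with 5 and 10 min turned. The mean of ATG33 was -0.04 scaled and -0.13 with array weights. The slope of ATG8 was 0.04 both scaled and with array weights, and that of ATG32 was -0.02 scaled and -0.01 with array weights. With 1 time left out, the mean lay between -0.15 and 0.00 for ATG9 and between -0.13 and 0.14 for ATG33. The slope lay between -0.40 and 0.00 for ATG1, -0.24 and 0.04 for ATG7, -0.12 and 0.05 for ATG8, -0.02 and 0.12 for ATG9, -0.74 and 0.03 for ATG13, and -0.06 and 0.51 for ATG32. The cause was not tested.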

Other observations

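Genes that cells switch on when nitrogen is poor, a condition that also induces autophagy, were mostly above the pool at 5 min. Any link to autophagy or to ATG41 was not tested. Of 11 genes under nitrogen catabolite repression, 10 were above the pool at 5 min, with a median log2 ratio of 0.58, beside 0.0 over all genes. Of the 11, 3 were at least 2-fold higher, where 2.09% of all genes were 2-fold away in either direction. These were GAP1, the general amino acid permease, at 1.44, MEP2, an ammonium permease, at 1.40 and PUT1, of proline breakdown, at 1.27. The rest of the list lay between -0.27 for UGA1 and 0.74 for MEP1 and PUT4. DAL80, DAL5 and UGA4 were near the pool, at 0.08, 0.15 and 0.23. The median was 0.17, 0.11, 0.16 and 0.04 at 10, 20, 60 and 120 min. GAP1 was at 1.08, 0.43, 0.14 and 0.07 at those times, lower at each one. The list had 0 of 11 genes past the threshold in limma for the mean or the slope, beside 0 of 5770 genes (0%) in each. At an unadjusted p under 0.05 there were 4 and 2, beside 14.1% and 2.77% of all genes. With the 5 min sample turned, its median at 5 min would be -0.58, with 1 of 11 above the pool. In the self-hybridisation 2 of the 11 had a value, and GAP1, MEP2 and PUT1 had none.

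Of 12 genes of the nutrient signalling that controls autophagy, 0 were 2-fold from the pool at 5, 10, 20 and 120 min, and 3 of the 11 with a value (27.3%) were at 60 min, a share close to the 24.3% of all genes. The median of the list at 60 min was -0.39, beside 0.09 over all genes. The 3 were RIM15 at -1.36 and GCN2 at -1.33, both kinases, and URE2, the inhibitor of Gln3, at -1.50. TOR1, a kinase of TORC1, was at -0.04, 0.14, 0.05, -0.81 and -0.02.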
